A study of Mus musculus with 8 samples.

Results

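The Adnp hairpin group, 2 libraries with Adnp in their titles, was compared with its own 2 libraries of GFP-injected controls, all made from prefrontal cortex of 6 to 8 week old C57BL6/J mice. The mice of the first group, called shAdnp here, had received adeno-associated virus of serotype 9 (AAV9) carrying a short hairpin RNA, and the controls the same viral serotype carrying green fluorescent protein (GFP). An Adnp hairpin and knockdown mice are named in the deposited description of the study design. The treatment label of all hairpin libraries, shAdnp and shPogz, names ASH1L instead, and groups were taken from the titles. The 4 libraries belong to a series of 8, the other 4 being a Pogz set with 2 shPogz libraries and 2 GFP controls of its own (GFP, Pogz set). RNA came from whole tissue lysate, so infected and uninfected cells were measured together, and fewer cells of a type cannot be told apart from less RNA per cell. The labels call the samples biological duplicates, and a GFP virus without a hairpin was the only control.

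All 23393 named genes of the deposited counts were used, of which 17415 had counts high enough to be tested. Summed over named genes, the libraries held 63024070 and 55641435 counts in shAdnp, against 62999525 and 65104567 in its GFP controls. The ribosomal RNA precursor Rn45s took 7.62% and 0.740% of the counts in shAdnp, against 0.218% and 0.321% in GFP, and Lars2, a mitochondrial leucyl-tRNA synthetase gene, took 1.51% and 0.309%, against 0.0445% and 0.103%. Leaving both out of the library sizes left 1220 genes higher and 267 lower at an unadjusted p under 0.05, against 1161 and 295 with them. Markers of excitatory cortical neurons were present in every library, with 1108 and 1087 CPM of the vesicular glutamate transporter Slc17a7 in shAdnp, against 1173 and 1168 CPM in GFP. CPM is a gene's count on a common scale of library size, here after TMM scaling.

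ADNP is a zinc finger and homeodomain protein that binds DNA and recruits chromatin remodelling and heterochromatin factors, and mutations in its human gene cause a neurodevelopmental syndrome with autism. Microglia are the resident macrophages of the brain, and the prefrontal cortex also holds astrocytes, oligodendrocytes, vessels and, at its surface, the meninges with their fibroblasts and border macrophages. Injection of a virus into the brain can itself draw a response from such cells. The transcript named in the titles, Adnp, stood at 87.2 and 118 CPM in shAdnp, against 137 and 111 CPM in GFP. The libraries of the groups overlapped, and the log2 fold change was -0.27 (SE 0.19). Pogz differed by -0.12 (SE 0.16) and Ash1l by -0.10 (SE 0.14), with overlapping libraries in both cases. Of the 22 genes listed as ADNP, POGZ and heterochromatin partners, 0 were higher and 0 lower at an unadjusted p under 0.05, and their median log2 fold change was -0.03.

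With edgeR's quasi-likelihood test, fitted to all 8 libraries and adjusted by Benjamini-Hochberg, 0 of 17415 genes (0%) passed an adjusted p of 0.05, and the smallest adjusted p was 0.295. The spread of p-values was nonetheless lopsided. At an unadjusted p under 0.05, 1161 genes (6.67%) were higher in shAdnp and 295 (1.69%) were lower. These counts describe the ranking and are not calls. The higher genes had a median log2 fold change of 0.95 and the lower genes one of -0.34, and 547 of the higher but 28 of the lower differed by more than 1 on the log2 scale. The lower genes were more often abundant, with 71 of the 295 lower but 45 of the 1161 higher over a mean of 100 CPM. Most genes of both kinds lay under that level. Among genes at an unadjusted p under 0.05, the lower ones made up 12.9% under 1 CPM and 5.98% at 1 to 10 CPM. Their share was 27.1% at 10 to 100 CPM and 61.2% over 100 CPM. Both shAdnp libraries lay above both GFP libraries in 3559 genes (20.4%) and below both in 3664 genes (21%), and the median log2 fold change over all tested genes was -0.01.

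DESeq2, the tool named in the submitters' processing notes, called 416 genes higher (2.39%) and 4 lower (0.023%) at an adjusted p under 0.05 on the same 8 libraries. Both counts changed with single libraries of either group. Without shAdnp replicate 1, 67 genes were called higher and 86 lower, so that lower calls outnumbered higher ones. The counts were 219 higher and 6 lower without shAdnp replicate 2, 7 and 0 without GFP replicate 1, and 589 and 3 without GFP replicate 2. Against all 4 GFP libraries of the series as 1 group 35 were called higher and 3 lower, a comparison added after the data were seen. Both shAdnp libraries exceeded all 4 GFP libraries in 1487 genes (8.54%) and fell short of all 4 in 1220 (7.01%). Of the 416 genes called higher, 293 (70.4%) exceeded all 4. Over the tested genes, the median absolute log2 difference was 0.211 between the 2 shAdnp libraries and 0.154 between the 2 GFP libraries.

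**Figure D1:**
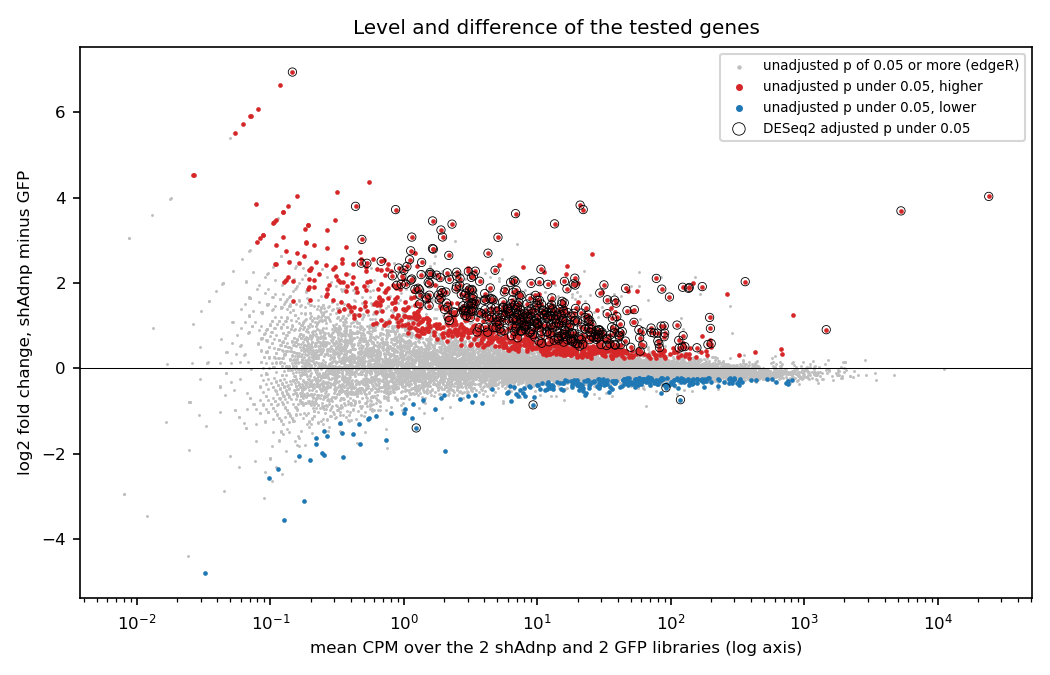
Each point is 1 of the 17415 tested genes, with its mean CPM over the 2 shAdnp and 2 GFP libraries on a log axis and its log2 fold change, shAdnp minus GFP. Of the 1161 higher genes (red), which reach large differences, 45 lie over 100 CPM. Of the 295 lower genes (blue), which mostly differ by less, 71 lie over 100 CPM. Rings mark the 420 genes past DESeq2's adjusted p.

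The 11 higher genes described here, taken by the smallest p and no overlap between groups, included genes of basement membrane, secreted factors and phagocytes. Lama1, the laminin alpha 1 chain of basement membranes of the meninges and vessels (chromosome 17), stood at 14.1 and 11.6 CPM in shAdnp, against 5.84 and 6.21 CPM in GFP. Its log2 fold change was 1.09 (SE 0.15; DESeq2 adjusted p = 2.24e-05). Serpinf1, which encodes the secreted factor PEDF, stood at 13.2 and 13.6 CPM, against 6.25 and 6.96 CPM (1.02, SE 0.15). That the groups lie apart in both genes follows from how they were chosen. The libraries of the Pogz-set controls lay between the groups for these genes, at 10.8 and 11.2 CPM for Lama1 and at 8.84 and 10.5 CPM for Serpinf1.

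Of the other 9, Stab1, a scavenger receptor of border macrophages and sinusoidal endothelium, stood at 40.4 and 37.9 CPM in shAdnp, against 22.5 and 22.7 CPM in GFP (log2 fold change 0.79, SE 0.12). Gpr84, a receptor for medium-chain fatty acids that microglia induce on activation, stood at 4.12 and 4.10 CPM, against 0.834 and 0.891 CPM (2.25, SE 0.35). Tlr1, which pairs with TLR2 to sense bacterial lipopeptides, stood at 6.68 and 4.70 CPM, against 0.867 and 1.48 CPM (2.27, SE 0.39). Replicates were close together for Stab1 and Gpr84 and wider for Tlr1. That the groups did not overlap in these 3 follows from how the genes were chosen. Runx1, a transcription factor of the blood and myeloid lineages, stood at 5.20 and 4.48 CPM in shAdnp, against 1.21 and 1.496 CPM in GFP (1.84, SE 0.31). Cd33, a sialic acid receptor of myeloid cells, stood at 11.5 and 10.3 CPM, against 4.58 and 5.35 CPM (1.13, SE 0.18), but a Pogz-set control reached 10.7 CPM. Man2b1, the lysosomal alpha-mannosidase, stood at 109 and 94.3 CPM, against 54.9 and 60.2 CPM (0.82, SE 0.14). Rassf4, Milr1 and Lyz1 completed the group with log2 fold changes of 1.15, 2.48 and 2.79. Lyz1 is a near copy of Lyz2, and Stab1, Milr1, Runx1 and Rassf4 overlap other annotated genes, so reads may have been shared between them.

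The 12 lower genes differed by less. Klhl14 stood at 0.782 and 0.576 CPM in shAdnp, against 1.59 and 2.01 CPM in GFP and 1.77 and 2.15 CPM in the Pogz-set controls (log2 fold change -1.40, SE 0.33; DESeq2 adjusted p = 0.0385). Htr1f, a serotonin receptor of deep-layer cortical neurons, stood at 7.91 and 5.29 CPM, against 12.9 and 11 CPM (-0.86, SE 0.22), but the Pogz-set controls were at 6.83 and 8.78 CPM. Ryr3, an intracellular calcium release channel, stood at 69.8 and 69.5 CPM, against 95.1 and 86.2 CPM in GFP and 106 and 104 CPM in the Pogz-set controls (-0.38, SE 0.10). Klhl14 and Ryr3 were thus below all 4 GFP libraries, and Htr1f was not. Maob, the monoamine oxidase of astrocytes and serotonergic neurons, stood at 18.4 and 22.9 CPM in shAdnp, against 28.2 and 28.3 CPM in GFP (-0.46, SE 0.13). Ndufa3 and Ndufv2, subunits of respiratory complex I, stood at 50.4 and 50.5 CPM and at 95.3 and 87.1 CPM in shAdnp, against 64.2 and 63.5 CPM and 120 and 119 CPM in GFP. Cdkl4, Ppp1r14c, Ldb2, 2010107E04Rik, Ola1 and Fstl5 had log2 fold changes between -0.53 and -0.35. Of these 6 genes, Cdkl4, 2010107E04Rik and Fstl5 lay below all 4 GFP libraries. Klhl14, Ldb2, Ndufv2 and Ola1 overlap other annotated genes.

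**Figure D2:**
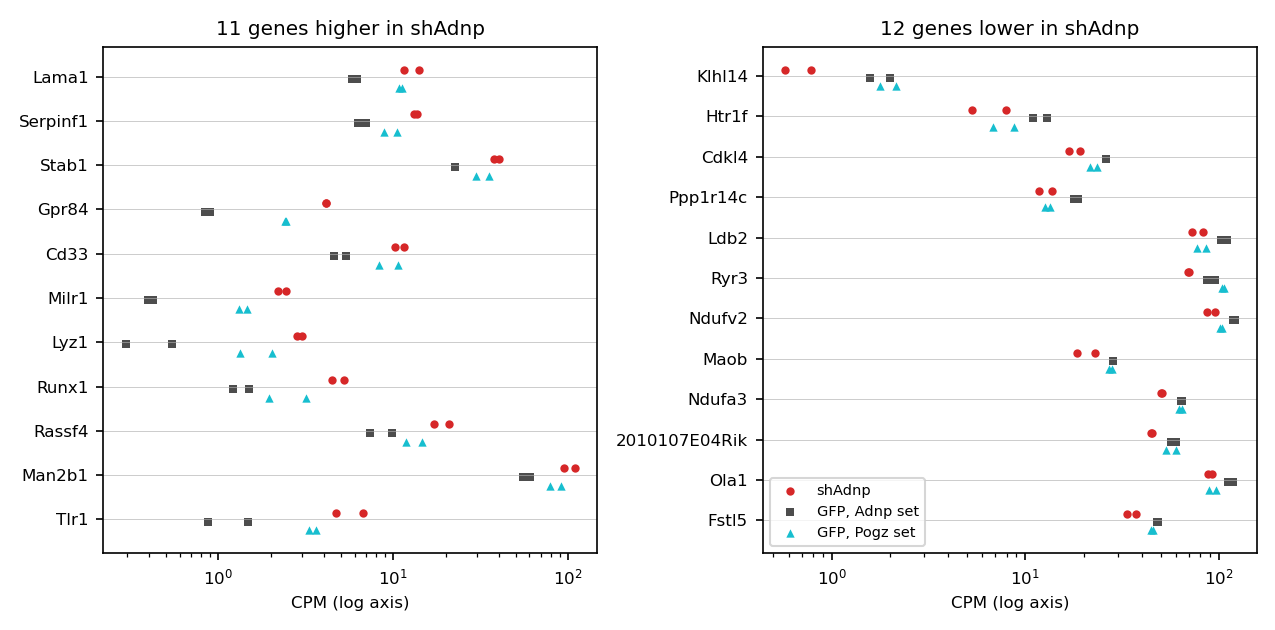
CPM on a log axis of the 11 higher (left) and 12 lower (right) genes chosen by the smallest p without overlap, with 1 point per library for shAdnp (red circles), its GFP controls (dark squares) and the GFP controls of the Pogz set (cyan triangles). For most of the higher genes the Pogz-set controls lie between the groups, as Lama1 does at 10.8 and 11.2 CPM.

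Markers of the fibroblasts of the meninges and of the perivascular space were higher as a group. Each of the 18 listed genes was tested and was above 0, and the median log2 fold change was 0.80. At an unadjusted p under 0.05, 13 of 18 were higher against 6.67% of all genes, 8 passed DESeq2 against 2.39%, and 17 of 18 exceeded all 4 GFP libraries against 8.54%. The count at an unadjusted p under 0.05 was 7 without shAdnp replicate 2 and 8 without GFP replicate 1. The summed level of the list was 854 and 967 CPM in shAdnp, against 630 and 628 CPM in its GFP controls and 549 and 627 CPM in the Pogz-set controls. These sums lean on Ptgds, the prostaglandin D synthase of the leptomeninges, at 428 and 541 CPM in shAdnp, against 381 and 364 CPM in GFP.

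Igf2, a growth factor that in the adult brain comes from the meninges and choroid plexus, stood at 37.3 and 37.4 CPM in shAdnp, against 20.4 and 19.7 CPM in GFP (log2 fold change 0.90, SE 0.17; DESeq2 adjusted p = 0.000439). Both replicates were almost level, and no GFP library of either set exceeded 24.8 CPM. Igfbp2, a binding protein of the IGFs, stood at 66.0 and 47.1 CPM, against 25.3 and 29.5 CPM (1.04, SE 0.20). Aldh1a2, the retinoic acid-producing enzyme of meningeal fibroblasts, stood at 9.47 and 12.9 CPM, against 6.12 and 6.51 CPM (0.83, SE 0.18). Bgn, the small proteoglycan biglycan, stood at 12.3 and 12.9 CPM, against 5.85 and 7.13 CPM (0.96, SE 0.21). The meningeal transporters Slc13a4, Slc22a6 and Slc6a13 had log2 fold changes of 0.72, 0.77 and 0.49, and the fibroblast transcription factors Foxc1 and Foxd1 of 0.31 and 0.72, values that for Foxc1, Foxd1 and Slc6a13 did not reach an unadjusted p of 0.05. H19, the imprinted RNA beside Igf2, was examined after its values were seen and stood at 2.09 and 2.02 CPM in shAdnp, against 0.196 and 0.287 CPM in GFP.

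The Pogz set gave other values for the list. Its median log2 fold change there, shPogz minus its own GFP controls, was 0.07, and 8 of 18 members differed between the responses at an unadjusted p under 0.05, against 3.51% of all genes. By edgeR, 0 of 17415 genes (0%) differed between the responses at an adjusted p under 0.05. The choroid plexus list, another source of Igf2, had 1 of 9 tested members higher at an unadjusted p under 0.05 and a summed level of 10.6 and 5.40 CPM in shAdnp, against 3.84 and 5.59 CPM in GFP. How much meninges each dissected piece carried was not tested.

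Other lists of matrix genes were higher in part, beside 6.67% of all tested genes higher at an unadjusted p under 0.05. Of 17 fibrillar and network collagens, 9 were higher at an unadjusted p under 0.05 and 0 lower (median 0.55), with Col1a1, Col1a2 and Col3a1 also counted in the fibroblast list. Col1a1 stood at 19.0 and 22.9 CPM in shAdnp, against 9.32 and 6.80 CPM in GFP (1.38, SE 0.30). Col16a1 stood at 27.5 and 20.9 CPM, against 14.8 and 12.8 CPM (0.82, SE 0.16), and Col6a2 at 19.4 and 16.1 CPM, against 11.4 and 10.5 CPM (0.70, SE 0.16). Groups were apart in all 3 collagens. Of 14 basement membrane genes 7 were higher (median 0.33), of 16 matricellular genes 9 (median 0.49) and of 22 matrix proteases and inhibitors 8 (median 0.69). In these 4 lists 7, 2, 8 and 6 genes exceeded all 4 GFP libraries, against 8.54% of all genes. The basement membrane list summed to 518 and 666 CPM in shAdnp, against 512 and 514 CPM in GFP and 540 and 645 CPM in the Pogz-set controls. Perineuronal net genes, which coat inhibitory neurons, had 2 of 12 higher and a median of 0.07. Mural cell markers had 3 of 14 higher (median 0.36) and endothelial markers 2 of 16 (median 0.12). Cldn5, the endothelial tight junction protein, stood at 47.0 and 54.7 CPM in shAdnp, against 36.5 and 41.1 CPM in GFP, and a Pogz-set control reached 48.0 CPM.

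**Figure D3:**
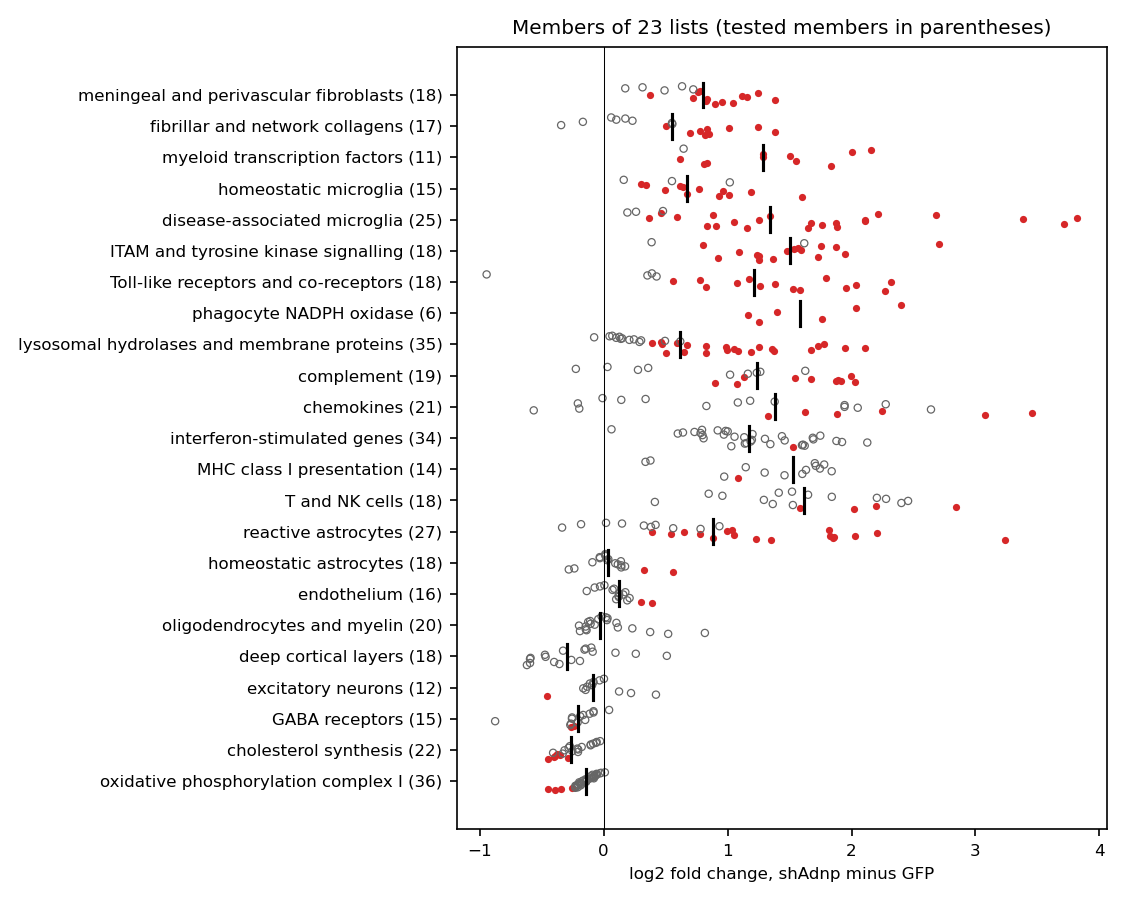
Log2 fold change, shAdnp minus GFP, of each tested member of 23 lists, filled red where the unadjusted edgeR p was under 0.05 and open otherwise, with the list median as a black bar. Fibroblast and myeloid lists lie to the right of 0, cholesterol synthesis to the left with a median of -0.26, and excitatory neurons and myelin around 0.

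Genes of microglia and other phagocytes were higher across most of the lists that hold them. In shPogz against its own controls medians were also above 0, at 0.79 for myeloid transcription factors, 0.29 for homeostatic and 0.89 for disease-associated microglia. Of the 1161 genes higher in shAdnp at an unadjusted p under 0.05 (6.67% of all tested), 955 lay above 0 in shPogz. Over all tested genes 46.4% did. Among transcription factors of the myeloid lineage, 10 of 11 were higher at an unadjusted p under 0.05 (median 1.29), and 4 were without shAdnp replicate 1 or without GFP replicate 1. Fli1, an ETS factor of blood and endothelial cells, stood at 17.6 and 15.8 CPM in shAdnp, against 7.96 and 10.8 CPM in GFP (0.84, SE 0.21). Spi1, listed in the files as Sfpi1 and encoding the master regulator PU.1, stood at 9.01 and 7.36 CPM, against 1.93 and 3.65 CPM (1.55, SE 0.41). Homeostatic microglial markers, which define the resting cell, were also higher, with 12 of 15 at an unadjusted p under 0.05 and a median of 0.67. Cx3cr1, the fractalkine receptor, stood at 180 and 117 CPM in shAdnp, against 70.2 and 77.5 CPM in GFP (1.01, SE 0.22). Tmem119, a marker that blood macrophages lack, stood at 39.3 and 42.5 CPM, against 21.7 and 29.6 CPM, but at 41.9 and 39.5 CPM in the Pogz-set controls. The defining markers of microglia were thus present in all libraries.

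Receptor and signalling genes of phagocytes had list medians between 1.12 and 1.61. In shPogz against its own controls the medians were also above 0, at 0.95 for ITAM, 1.09 for NADPH oxidase and 1.25 for Fc gamma receptor genes. The ITAM list holds the adaptors and tyrosine kinases that immune receptors signal through. Of its 18 genes, 16 were higher at an unadjusted p under 0.05 and 13 passed DESeq2 (median 1.51). Over all tested genes these shares were 6.67% and 2.39%. Syk, the central kinase, stood at 19.0 and 12.7 CPM in shAdnp, against 5.59 and 7.69 CPM in GFP (1.25, SE 0.25), with 12.8 and 15.5 CPM in the Pogz-set controls. Tyrobp, the adaptor of TREM2, stood at 99.6 and 44.6 CPM, against 14.9 and 24.5 CPM (1.87, SE 0.52). The shAdnp replicates differed by more than a factor of 2 for Tyrobp, and the groups still did not overlap. All 6 genes of the phagocyte NADPH oxidase, which makes superoxide, were higher (median 1.58), and 4 of 5 Fc gamma receptor genes were (median 1.61). The gene Cybb, the catalytic subunit of that oxidase, stood at 26.1 and 29.9 CPM in shAdnp, against 2.34 and 8.28 CPM in GFP. Toll-like receptors and their co-receptors had 14 of 18 higher (median 1.22), leukocyte cytoskeleton genes 13 of 16 (median 1.29), leukocyte integrins 5 of 12 (median 1.15) and chemoattractant and nucleotide receptors 15 of 23 (median 1.12). C3ar1, the receptor for the complement fragment C3a, stood at 21.6 and 11.7 CPM, against 3.68 and 4.49 CPM (2.03, SE 0.39).

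The pooled size of these lists depended on which controls were used. Against all 4 GFP libraries, the median of the ITAM list was 0.91. Of its 18 members, 11 exceeded all 4 GFP libraries, against 8.54% of all genes, and 5 had an unadjusted p under 0.05. The count was 10 without shAdnp replicate 1. GFP replicate 1 of the Adnp set had the lowest summed level of the 8 libraries for the ITAM list, at 128 CPM, and GFP replicate 2 the second lowest at 194 CPM. The shAdnp libraries were at 469 and 366 CPM, the shPogz libraries at 374 and 714 CPM and the Pogz-set controls at 246 and 337 CPM. High shAdnp values and low values of these controls cannot be told apart with 2 libraries a side.

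Promoter sequences from RefSeq (GRCm38.p6, the assembly of mm10) were read for the binding motif of PU.1, spelled GAGGAAGT or, on the other strand, ACTTCCTC, in the 250 bases before each annotated transcript start, with several starts for some genes. It was found in 2.38% of 16842 promoters of tested genes, in 6.02% of 415 promoters of genes DESeq2 called higher, and in 7 of 116 promoters (6.03%) of 9 lists. These were the lists of myeloid transcription factors, both microglial states, ITAM signalling, cytoskeleton, integrins, Fc receptors, Toll-like receptors and NADPH oxidase. The ITAM list alone held 4 of the 7, in 18 promoters (22.2%). The interferon element described further on was found in 7 of the same 116, against 2.73% of all promoters. A match describes letters and not a binding site. The windows of 4 of the 7 with the PU.1 motif are shown as examples, from genes with values in the text. That of Tlr1 precedes a start just inside the outer bounds of the gene. Capitals mark the motif, and sequences run in the direction of the gene.
Vav1 (chr17:57279069-57279099, + strand): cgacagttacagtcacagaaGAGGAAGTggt
Inpp5d (chr1:87620272-87620311, + strand): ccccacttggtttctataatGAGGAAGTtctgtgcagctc
Tlr1 (chr5:64933559-64933601, - strand): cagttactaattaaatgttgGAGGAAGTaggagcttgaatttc
Spp1 (chr5:104434978-104435025, + strand): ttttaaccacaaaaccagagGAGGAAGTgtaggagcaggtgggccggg

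Vav1, a guanine nucleotide exchange factor downstream of immune receptors, was chosen for its promoter after its values were seen and stood at 26.1 and 19.8 CPM in shAdnp, against 5.25 and 10.2 CPM in GFP (1.57, SE 0.45). Inpp5d, the lipid phosphatase SHIP1, stood at 52.1 and 47.2 CPM, against 24.8 and 27.4 CPM (0.93, SE 0.22), with a Pogz-set control at 48.2 CPM. Sh3bp2, an adaptor of SYK, stood at 12.4 and 9.14 CPM, against 3.61 and 4.74 CPM (1.36, SE 0.32). In each of these genes both shAdnp libraries lay above both of their own controls. Of the shown promoters, the motif ends 4 bases before the start of Vav1 and 106 bases before that of Spp1.

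Disease-associated microglia are a state of lipid-handling, phagocytic microglia first described near amyloid plaques in mice. Of the 25 genes listed for it, 22 were higher at an unadjusted p under 0.05 (median 1.34), against 6.67% of all genes. The count was 9 without shAdnp replicate 1 and 10 without GFP replicate 1. Spp1, which encodes osteopontin, stood at 25.9 and 13.03 CPM in shAdnp, against 5.89 and 6.53 CPM in GFP and 4.24 and 5.32 CPM in the Pogz-set controls (1.65, SE 0.36). Lpl, lipoprotein lipase, stood at 27.2 and 15.7 CPM, against 9.40 and 9.82 CPM (1.16, SE 0.25). Apoe, the main lipid carrier of the brain, stood at 2478 and 1331 CPM, against 968 and 1069 CPM (0.90, SE 0.26), with 1341 CPM in a Pogz-set control. The first shAdnp library was the higher one in 22 of the 25 genes, and its sum for the list was 6572 CPM against 3629 CPM in the second. In the GFP controls the sums were 2457 and 2826 CPM, and in the Pogz-set controls 3295 and 3220 CPM.

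Lysosomal genes followed the same division between replicates. Of 35 hydrolases and membrane proteins, 22 were higher at an unadjusted p under 0.05 (median 0.62), against 6.67% of all genes. In 33 of the 35, shAdnp replicate 1 exceeded replicate 2. Without shAdnp replicate 1 the count for the list was 5 of 35 and the median 0.37, and without GFP replicate 1 the count was 5 and the median 0.53. Scavenger and apoptotic cell receptors had 12 of 19 higher (median 0.79), lipid uptake and efflux genes 6 of 14 (median 0.56) and genes of eicosanoid synthesis 5 of 11 (median 0.40). Tbxas1, thromboxane synthase, stood at 12.2 and 8.23 CPM in shAdnp, against 2.22 and 3.72 CPM in GFP (1.78, SE 0.36).

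Secreted immune factors were higher for some families. Of 19 complement genes 10 were higher at an unadjusted p under 0.05 (median 1.24), against 6.67% of all genes. Of the 19, 9 exceeded all 4 GFP libraries, against 8.54% of all genes. The list summed to 1487 and 1044 CPM in shAdnp, against 266 and 534 CPM in GFP and 731 and 932 CPM in the Pogz-set controls. C1qa, which starts the classical pathway and in the brain comes from microglia, stood at 340 and 204 CPM in shAdnp, against 48.1 and 96.4 CPM in GFP (1.91, SE 0.52). Itgam, a subunit of complement receptor CR3, stood at 79.3 and 64.4 CPM, against 29.8 and 38.4 CPM (1.07, SE 0.19). For the interleukin 1 and inflammasome list 10 of 18 were higher (median 1.12), with Il1a at 4.85 and 3.47 CPM, against 1.06 and 1.10 CPM (1.94, SE 0.38), and Nlrp3 at 2.94 and 2.63 CPM, against 0.687 and 1.00 CPM. TNF and NF-kB genes had 10 of 21 higher (median 0.92), gp130 and STAT3 genes 5 of 14 (median 0.49) and the TGF-beta system 8 of 19 (median 0.41). Chemokines had 6 of 21 higher (median 1.38). Ccl3 stood at 5.04 and 1.93 CPM in shAdnp, against 0.425 and 0.398 CPM in GFP, and Ccl4 at 3.88 and 2.14 CPM, against 0.0981 and 0.446 CPM. Ccl3 and Ccl4 overlap in the annotation and attract monocytes and lymphocytes. The abundant neuronal chemokine Cx3cl1 stood at 710 and 754 CPM in shAdnp, against 738 and 736 CPM in GFP.

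Interferon-stimulated genes, class I antigen presentation and T and NK cell markers had medians above 1 and 0 genes called by DESeq2. The 34 interferon-stimulated genes had a median of 1.17 and each was above 0, yet 1 of 34 had an unadjusted p under 0.05 and 0 passed DESeq2. Over all tested genes, 6.67% were higher at such a p. Both shAdnp libraries lay above both of their controls in 28 of the 34 genes, and above all 4 GFP libraries in 18. These shares were 20.4% and 8.54% over all tested genes. The interferon-stimulated genes summed to 743 and 1206 CPM in shAdnp, against 245 and 647 CPM in GFP and 584 and 736 CPM in the Pogz-set controls. Replicate 2 exceeded replicate 1 in 34 of 34 genes in shAdnp, and did so in 34 of 34 in GFP. The same held for 18 of 18 T and NK cell markers in both groups, with sums of 28.8 and 61.9 CPM in shAdnp, against 8.60 and 26.9 CPM in GFP and 29.0 and 54.1 CPM in the Pogz-set controls. Of those 18, 4 were higher at an unadjusted p under 0.05 and 0 exceeded all 4 GFP libraries. Cd3e, a T cell receptor subunit, stood at 0.435 and 0.864 CPM in shAdnp, against 0 and 0.175 CPM in GFP. The part of such cells in the other immune lists was not tested. MHC class I genes had 1 of 14 higher (median 1.53), with 13 of 14 above both controls and 2 above all 4 GFP libraries. Among them B2m, their shared light chain, stood at 405 and 415 CPM in shAdnp, against 80.9 and 217 CPM in GFP and 264 and 431 CPM in the Pogz-set controls. MHC class II genes had 2 of 9 higher (median 1.93) and cytosolic nucleic acid sensors 3 of 14 (median 0.86). Monocyte markers had 1 of 8 higher (median 1.29) and B cell markers 0 of 8 (median 0.29), while border macrophage markers had 4 of 10 (median 0.71). Neutrophil markers had 1 of 9 higher and 1 lower, with a median of -0.12.

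The interferon response element, a pair of GAAA repeats spelled GAAANNGAAA and searched on both strands, was found in 12 of 26 promoters (46.2%) of the interferon-stimulated genes, against 2.73% of all promoters of tested genes. To show what the element looks like in genes of the list, 3 windows are shown with the element in capitals.
Isg15 (chr4:156200867-156200916, - strand): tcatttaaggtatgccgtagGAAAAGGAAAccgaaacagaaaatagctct
Igtp (chr11:58199502-58199551, + strand): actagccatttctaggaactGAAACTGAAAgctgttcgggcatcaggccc
Gbp2 (chr3:142620584-142620633, + strand): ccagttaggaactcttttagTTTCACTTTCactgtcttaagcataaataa

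These 3 genes were chosen after their values were seen. Isg15, a ubiquitin-like modifier, stood at 6.42 and 11.8 CPM in shAdnp, against 1.55 and 5.81 CPM in GFP. Igtp, a GTPase that defends against intracellular parasites, stood at 34.1 and 94.8 CPM, against 6.70 and 33.2 CPM. Gbp2, a guanylate-binding protein, stood at 45.2 and 115 CPM, against 5.87 and 36.3 CPM. In all 3 the second library of each group was the higher, and the first shAdnp library lay just above the second GFP library.

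**Figure D4:**
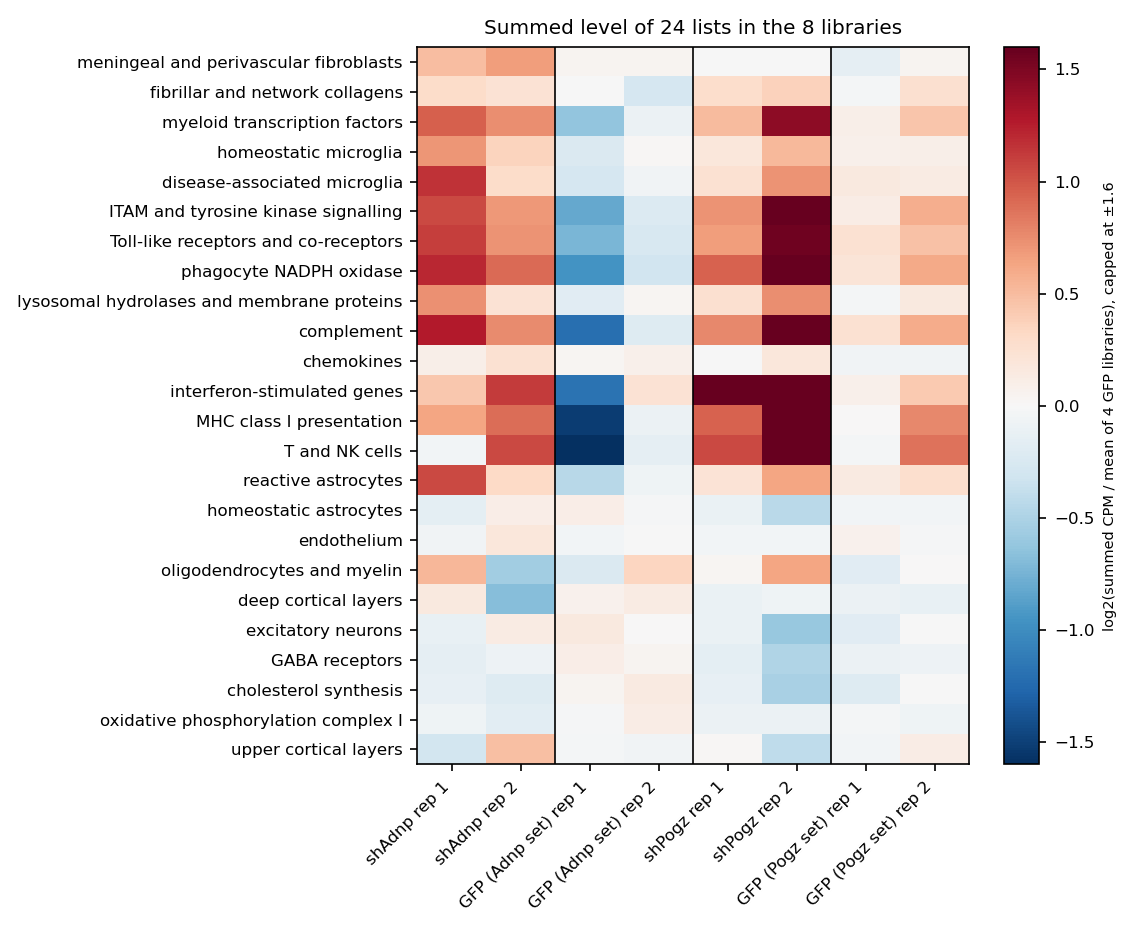
Colour gives the log2 ratio of a list's summed CPM in each of the 8 libraries to its mean over the 4 GFP libraries, for 24 lists. The first GFP library of the Adnp set has the lowest values of the 8 for the immune lists named here, at -1.79 for T and NK cells and -1.21 for complement, and the fibroblast list is positive in the 2 shAdnp libraries, at 0.49 and 0.67.

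Reactive genes of astrocytes were higher, and markers of the resting cell had a median near 0. Over all tested genes, 6.67% were higher at an unadjusted p under 0.05. Of 27 tested genes of reactive astrocytes 17 were higher at an unadjusted p under 0.05 (median 0.88), and 10 were without shAdnp replicate 1 or without GFP replicate 1. Of the 27 reactive genes, 10 exceeded all 4 GFP libraries, against 8.54% of all genes. In shPogz against its own controls the median of the list was also above 0, at 0.55. Gfap, the intermediate filament that reactive astrocytes build up, stood at 767 and 393 CPM in shAdnp, against 93.7 and 191 CPM in GFP (2.03, SE 0.46), and at 318 and 350 CPM in the Pogz-set controls. The hyaluronan receptor Cd44 stood at 17.5 and 14.3 CPM, against 5.49 and 7.02 CPM (1.35, SE 0.28). Microglia also express Cd44. Homeostatic astrocyte markers had 2 of 18 higher and a median of 0.03. Of these, the water channel Aqp4 stood at 241 and 211 CPM in shAdnp, against 140 and 167 CPM in GFP (0.56, SE 0.14), and the glutamate transporter Slc1a2 at 2759 and 3448 CPM, against 4216 and 3325 CPM.

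Genes of cholesterol synthesis lay below 0, and 0 of them passed DESeq2. Each of the 22 tested genes of the pathway was below 0 (median -0.26), 6 had an unadjusted p under 0.05 against 1.69% of all genes, and 5 lay below all 4 GFP libraries against 7.01%. Sc5d, which acts near the end of the pathway, stood at 62.0 and 58.1 CPM in shAdnp, against 72.1 and 74.4 CPM in GFP (-0.29, SE 0.10). Fdft1, squalene synthase, stood at 83.8 and 83.5 CPM, against 106 and 113 CPM (-0.39, SE 0.15), while the Pogz-set controls were at 77.0 and 102 CPM. Against all 4 GFP libraries the list median was -0.17, and the count of 6 became 0 when GFP replicate 2 was left out and 1 when either GFP replicate 1 or shAdnp replicate 2 was. Hmgcs1, the enzyme that makes HMG-CoA, stood at 406 and 367 CPM, against 458 and 513 CPM. Its promoter held the sterol regulatory element spelled TCACNCCAC, found in 1 of 18 promoters of the list and in 1.04% of all, and shown with the element in capitals.
Hmgcs1 (chr13:119690194-119690242, + strand): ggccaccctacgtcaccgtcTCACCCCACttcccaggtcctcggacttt

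Lists of the respiratory chain and of neuronal signalling had medians at or slightly below 0, beside a median of -0.01 over all tested genes, of which 47.7% lay above 0 and 1.69% were lower at an unadjusted p under 0.05. Of 36 tested subunits of complex I, 35 lay below 0, 4 had an unadjusted p under 0.05 and the median was -0.14. Complexes II and III had 1 of 13 lower (median -0.14), complex IV 0 of 11 (-0.16) and complex V 1 of 15 (-0.18). Atp5o, a stalk subunit of ATP synthase, stood at 130 and 122 CPM in shAdnp, against 155 and 158 CPM in GFP. GABA receptor genes had 2 of 15 lower and 14 of 15 below 0 (median -0.21). Sodium, calcium and HCN channels had 3 of 23 lower (median -0.05). Glutamate receptors and postsynaptic genes had 0 of 23 lower (median -0.11), synaptic vesicle genes 0 of 22 (-0.02) and potassium channels 0 of 25 (-0.06).

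The 2 shAdnp libraries differed in cortical layers and in myelin. Markers of the deep layers summed to 846 and 473 CPM in shAdnp, against 793 and 831 CPM in GFP, and markers of the upper layers to 651 and 1113 CPM, against 781 and 767 CPM. Upper-layer genes were higher in shAdnp replicate 2 than in replicate 1 in 12 of 12, and deep-layer genes were lower in replicate 2 in 15 of 18. In the layer 6 markers Foxp2 and Syt6, examined after their values were seen, shAdnp stood at 31.6 and 10.5 CPM and at 39.7 and 12.5 CPM, against 33.3 and 30.2 CPM and 39.5 and 39.2 CPM in GFP. The list of deep cortical layers had a median log2 fold change of -0.29, with -1.03 without shAdnp replicate 1 and 0.03 without shAdnp replicate 2. Cux2, a factor of the upper layers, stood at 64.8 and 128 CPM, against 66.6 and 66.7 CPM. Myelin and oligodendrocyte genes summed to 5296 and 2496 CPM in shAdnp, against 3122 and 4650 CPM in GFP, and replicate 1 was the higher in 20 of 20 genes in shAdnp. Without shAdnp replicate 1, edgeR called 8 genes at an adjusted p under 0.05, all lower. They were Foxp2, Syt6, Hs3st4, Rprm, Nxph3, Glra2, Gabra5 and Padi6, which in shAdnp replicate 1 were at 31.6, 39.7, 79.1, 73.9, 69.5, 33.6, 67.4 and 2.29 CPM. Their values in shAdnp replicate 2 were 10.5, 12.5, 25.5, 21.1, 16.1, 10.5, 25.2 and 0.108 CPM. The part of dissection depth was not tested.

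The remaining lists gave mixed counts, beside 6.67% of all tested genes higher and 1.69% lower at an unadjusted p under 0.05. Immediate early genes, which neurons switch on when active, had 3 of 20 higher (median 0.23), the 3 being Egr1, Egr3 and Egr4. Egr3 stood at 30.9 and 36.6 CPM in shAdnp, against 22.9 and 26.9 CPM in GFP. Interneuron markers had 0 of 18 higher and 0 lower (median 0.00), striatal markers 1 of 14 lower (median -0.12), excitatory neuron markers 1 of 12 lower (median -0.09) and oligodendrocyte precursor markers 2 of 12 higher (median 0.18). The insulin-like growth factor system had 5 of 11 higher (median 0.14), and the 2 most displaced of its members, Igf2 and Igfbp2, also stand in the fibroblast list. DNA replication and mitosis genes had 5 of 20 higher and 20 of 20 above 0 (median 0.53), the unfolded protein and integrated stress response 2 of 20 (median 0.07), p53 targets 1 of 15, clock genes 1 of 18 and glucocorticoid-induced genes 2 of 13. The clustered protocadherins, glycolysis, the proteasome core and the small RNA pathway had 0 genes at an unadjusted p under 0.05 in either direction, and red blood cell markers 0 of 2.

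**Figure D5:**
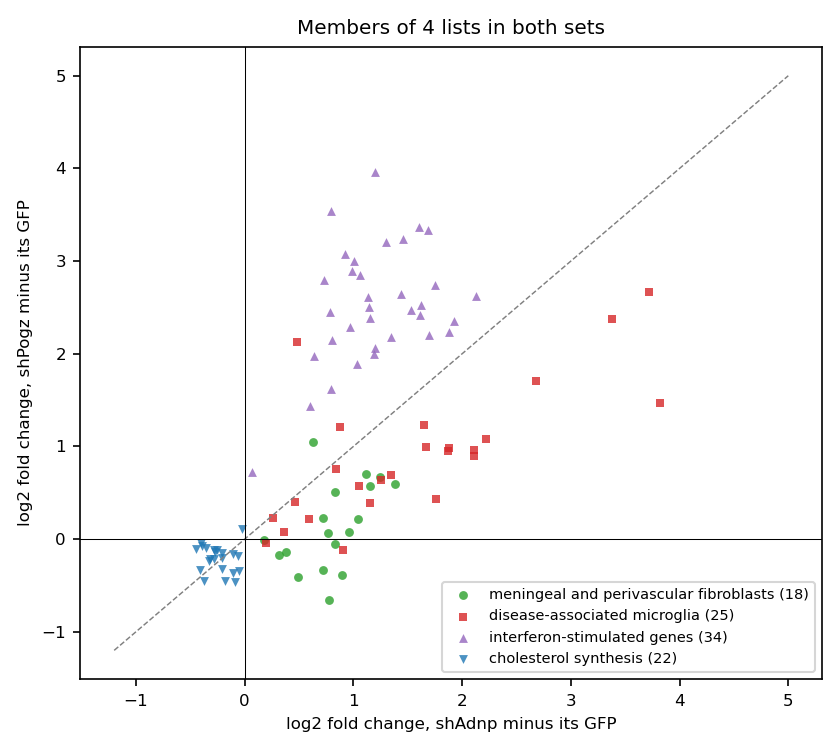
Log2 fold change against their own GFP controls of members of 4 lists in shAdnp (horizontal) and shPogz (vertical), with the dashed line marking equal values. Fibroblast genes (green circles) spread along the horizontal axis, with medians of 0.80 in shAdnp and 0.07 in shPogz, and interferon-stimulated genes (purple triangles) lie mostly above the line, with medians of 1.17 and 2.49.

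The 35 genes that DESeq2 called higher against all 4 GFP libraries are described here with some chosen after their values were seen, where no list names them. Rn45s and Lars2 had the largest fold changes of the 35, at 4.09 and 4.02 on the log2 scale by DESeq2. Both leaned on the first shAdnp library. Rn45s stood at 83490 and 7416 CPM in shAdnp, and Lars2 at 16590 and 3097 CPM. Both genes were also higher in shPogz than in its own controls. There Rn45s stood at 6095 and 4784 CPM, against 1299 and 3848 CPM, and Lars2 at 2559 and 2200 CPM, against 151 and 748 CPM. Fabp7, a fatty acid binding protein of astrocytes and radial glia, stood at 74.0 and 39.9 CPM in shAdnp, against 17.25 and 20.4 CPM in its controls and 20.5 and 25 CPM in the Pogz-set controls. Nupr1, a stress-induced transcription regulator, stood at 20.2 and 15.7 CPM, against 5.76 and 7.59 CPM. The 35 also held Spp1, Lpl, Plin2, Igfbp2, Igf2, Aldh1a2, Mgp, Cx3cr1, C3ar1, Clec7a, Il1a and the chemokines Ccl3, Ccl4, Ccl6 and Ccl9. Clec7a, a beta-glucan receptor of activated microglia, stood at 63.4 and 18.7 CPM in shAdnp, against 2.55 and 3.68 CPM in GFP and 5.94 and 3.03 CPM in the Pogz-set controls. The 3 called lower against all 4 were Klhl14, Ryr3 and Ndufa3. In shPogz, Fabp7 stood at 28.3 and 43.3 CPM and Clec7a at 11.9 and 43.6 CPM, with the second shPogz library as high as the lower shAdnp library or higher.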

How the data were processed

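Prefrontal cortex RNA was sequenced after ribosomal RNA depletion from 1 µg per library, in biological duplicates, per the labels' protocols. Each deposited column holds whole-number read counts, 1 value per gene symbol, not normalized. The submitters' processing notes name STAR, featureCounts, DESeq2 and build mm10, while the labels' protocols name Cutadapt and TopHat2. Their versions and the counting strand were not found there, which leaves near-identical, overlapping and antisense genes uncertain.

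From every library 2 blank identifiers and 25 calendar serial numbers (0.306% to 0.337% of counts) were left out. The test was edgeR 4.0.16 (R 4.3.3), using filterByExpr (groups given, minimum count 10), TMM scaling and a robust quasi-likelihood fit to all 8 libraries with 1 mean per group (4 residual degrees of freedom, common biological coefficient of variation 0.171). The contrast was shAdnp minus its GFP controls, adjusted by Benjamini-Hochberg over all 17415 genes. Where a p beside a single gene is given, it is DESeq2's. A second contrast was the shAdnp response minus the shPogz response. SE was worked back from edgeR's test, as the absolute log2 fold change divided by the square root of the quasi-likelihood F statistic. P-values rest on the spread between 2 libraries a group, and total counts ranged from 27501722 to 69002749. Alternatives were DESeq2 1.42.0, limma-voom (limma 3.58.1), other scalings and filters, the replicate number as a term, and each library left out. The scripts were tested on simulated data.

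The comparison and the 74 gene lists (1171 symbols, of which 17 were matched by an older symbol and 6 were not found in the files) were chosen with earlier results of these data known. So were the tests. Genes named are Adnp, Pogz and Ash1l, then the 12 higher and 12 lower genes with the smallest p, at least 1 CPM and no overlap. Each list adds its 4 members of smallest p and its most abundant one, or every member of small lists. Genes over 1% of a library and defining markers were also named. Some genes that this rule takes are not reported here. Gene positions and promoters are RefSeq's (GRCm38.p6), with 17337 of 17415 symbols matched and promoters for 13386 tested genes. Over all tested genes, same-numbered replicates of the groups did not deviate together (correlation 0.0021), though in some immune lists they did.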

Additional observations from a re-analysis of the deposited data

Results flagged for a closer look

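The response to the shAdnp virus differed from that to the shPogz virus, each against its own GFP controls, in 2 genes by DESeq2's test of the difference itself. Igf2 differed by 1.27 on the log2 scale, shAdnp response minus shPogz response (DESeq2 adjusted p = 0.0327), and Lama1 by 1.26 (DESeq2 adjusted p = 0.0398). By edgeR's quasi-likelihood test 0 genes differed at an adjusted p under 0.05, with a smallest adjusted p of 0.978, and 612 did at an unadjusted p under 0.05. Igf2 stood at 37.3 and 37.4 CPM in shAdnp, against 20.4 and 19.7 CPM in GFP. In shPogz it stood at 20.7 and 14.4 CPM, against 21.0 and 24.8 CPM in the GFP libraries of that set. Lama1 stood at 14.1 and 11.6 CPM in shAdnp, against 5.84 and 6.21 CPM in GFP. In shPogz it stood at 9.85 and 9.59 CPM, against 10.8 and 11.2 CPM in the GFP libraries of that set. For Lama1 the 2 sets of controls themselves did not overlap.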

How the results depend on the processing

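The count of genes past an adjusted p of 0.05 was 0 in edgeR and in the limma-voom, scaling and filter alternatives tried, but 420 with DESeq2 and 505 with DESeq2 on the 4 libraries compared. Leaving out 1 library at a time gave 0 to 8. With the replicate block it was 175, all higher. Over all tested genes, same-numbered libraries did not deviate together (correlation of deviations 0.0021). In 34 of 34 interferon-stimulated genes, however, replicate 2 exceeded replicate 1 in both groups, and pairing was not tested further. Under the block, 131 genes were lower at an unadjusted p under 0.05. With 1 library left out, that unadjusted count ranged from 511 to 1340 for higher and from 76 to 591 for lower genes. It was 651 for higher genes against all 4 GFP libraries. The genes DESeq2 called higher numbered 35 against all 4 GFP libraries and 7 to 589 with 1 library left out. Those it called lower numbered 3 and 0 to 86, the 86 without shAdnp replicate 1. Responses that differed between shAdnp and shPogz numbered 2 with DESeq2 and 0 to 4 with 1 library left out, and 317 to 1214 at an unadjusted p under 0.05. The cause of these changes was not tested.

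The medians of 8 lists (disease-associated microglia, ITAM, lysosome, fibroblasts, reactive astrocytes, interferon-stimulated genes, cholesterol synthesis and complex I) kept their direction under every alternative run. The median of deep cortical layers did not, at -0.29 with all libraries and 0.03 without shAdnp replicate 2. Leaving out 1 library gave 1.15 to 1.98 for the ITAM list, 0.37 to 0.93 for lysosomal genes, 0.65 to 2.19 for interferon-stimulated genes, 0.65 to 0.93 for fibroblasts and -0.29 to -0.19 for cholesterol synthesis. Against all 4 GFP libraries the medians were 0.91 for ITAM, 0.57 for reactive astrocytes and -0.17 for cholesterol synthesis. Among 54 genes, 3 turned direction. For genes chosen by a small p and no overlap between groups, a kept direction follows from that choice. Leaving out 1 library gave log2 fold changes of -0.27 to 0.0556 for Pogz, -0.23 to 0.0623 for Ash1l and -0.69 to 0.33 for Mbp. Against all 4 GFP libraries, Ash1l was at 0.0565 and Mbp at 0.000288. Where a group was left with 1 library, that library was assumed to vary like the other groups. The alternatives using all 4 GFP libraries, leaving out Rn45s and Lars2 together, and refitting DESeq2 without single libraries were chosen after seeing the data.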
